A study of Mus musculus with 93 samples.

Results

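Macrophages were compared across birth in 5 tissues, with 11 libraries of postnatal day 2 (P2) set against 10 libraries of the late embryonic stage E18.5. The members are the libraries labelled Mac from brain, kidney, liver, lung and skin at these ages, which are 21 of the 93 libraries of the series and of its 74 Mac libraries. At P2 there were 2 libraries each from brain, kidney, liver and lung and 3 from skin. At E18.5 there were 2 from each tissue. All are bulk libraries made by SMART-Seq2, which copies whole transcripts from little input, and were made from polyA RNA of mouse cells labelled as macrophages. Strain, sex, genotype and how the cells were isolated are not given in the sources used here, and neither is what sets technical replicates apart from biological ones, so the p-values weigh differences against a spread between libraries that may be only technical. The files hold log2 values and no counts, and the depth is unknown. A gene's level was summed over its transcripts above a common floor of 5.43. A gene listed at 5.43 did not rise above that floor and may still be present at a low level. A difference against libraries at the floor is therefore a lower limit in size and does not show absence. Differences are given as P2 minus E18.5 in log2 with their standard error, from limma fitted to all 12805 genes tested. Calls needed a difference of at least 1 in size and a p under 0.05 after Benjamini-Hochberg adjustment. Where the ages of a gene are said not to overlap, the share of all genes without overlap was not counted. In bulk RNA, fewer cells of a type and less RNA per cell cannot be told apart.

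Tissue macrophages settle in organs before birth and then take on programmes of their tissue: microglia in brain, Kupffer cells in liver, Langerhans cells in epidermis and alveolar macrophages in lung. Alveolar macrophages mature around birth, when the lung fills with air, under the cytokine GM-CSF and the transcription factor PPARγ, and they clear surfactant. Langerhans cells are known for langerin (Cd207) and for antigen presentation by MHC class II. Type I interferon acts on genes that carry the interferon-stimulated response element in their promoters.

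Some libraries stood apart. The P2 libraries had 19899 ± 3230 transcripts above the floor (SD, n = 11) and the E18.5 libraries 22062 ± 1810 (SD, n = 10). The mean difference within tissues was -2413 transcripts (two-sided exact permutation p = 0.00926 over all arrangements of ages within tissues). Under 18000 transcripts lay 4 libraries, all of P2: kidney replicates 1 and 2 (14765 and 17012), liver replicate 1 (16947) and lung replicate 2 (17087). Tissue markers followed the labels in most libraries, with Sall1 and P2ry12 in brain, Clec4f and Vsig4 in liver, Cd207 and Epcam in P2 skin and Car4 and Pparg in P2 lung. The library labelled kidney E18.5 replicate 1 went against its label, with surfactant protein gene Sftpc at 11.48, Car4 at 11.26 and Pparg at 10.93, all 3 at the floor in the other 3 kidney libraries. Lung E18.5 replicate 2 held Sftpc at 12.30 and beta-globin Hbb-bs at 15.64. Liver P2 replicate 2 held neutrophil granule genes, with Ngp at 12.68 and S100a9 at 11.18. Skin P2 replicate 1 held Kupffer cell markers, with Timd4 at 10.96 and Clec4f at 9.06. Fits with and without these libraries are given. Without these 4 libraries with other markers, lung E18.5, liver P2 and kidney E18.5 hold 1 library each. Calls in these tissues then have no replicate at 1 age.

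**Figure D1:**
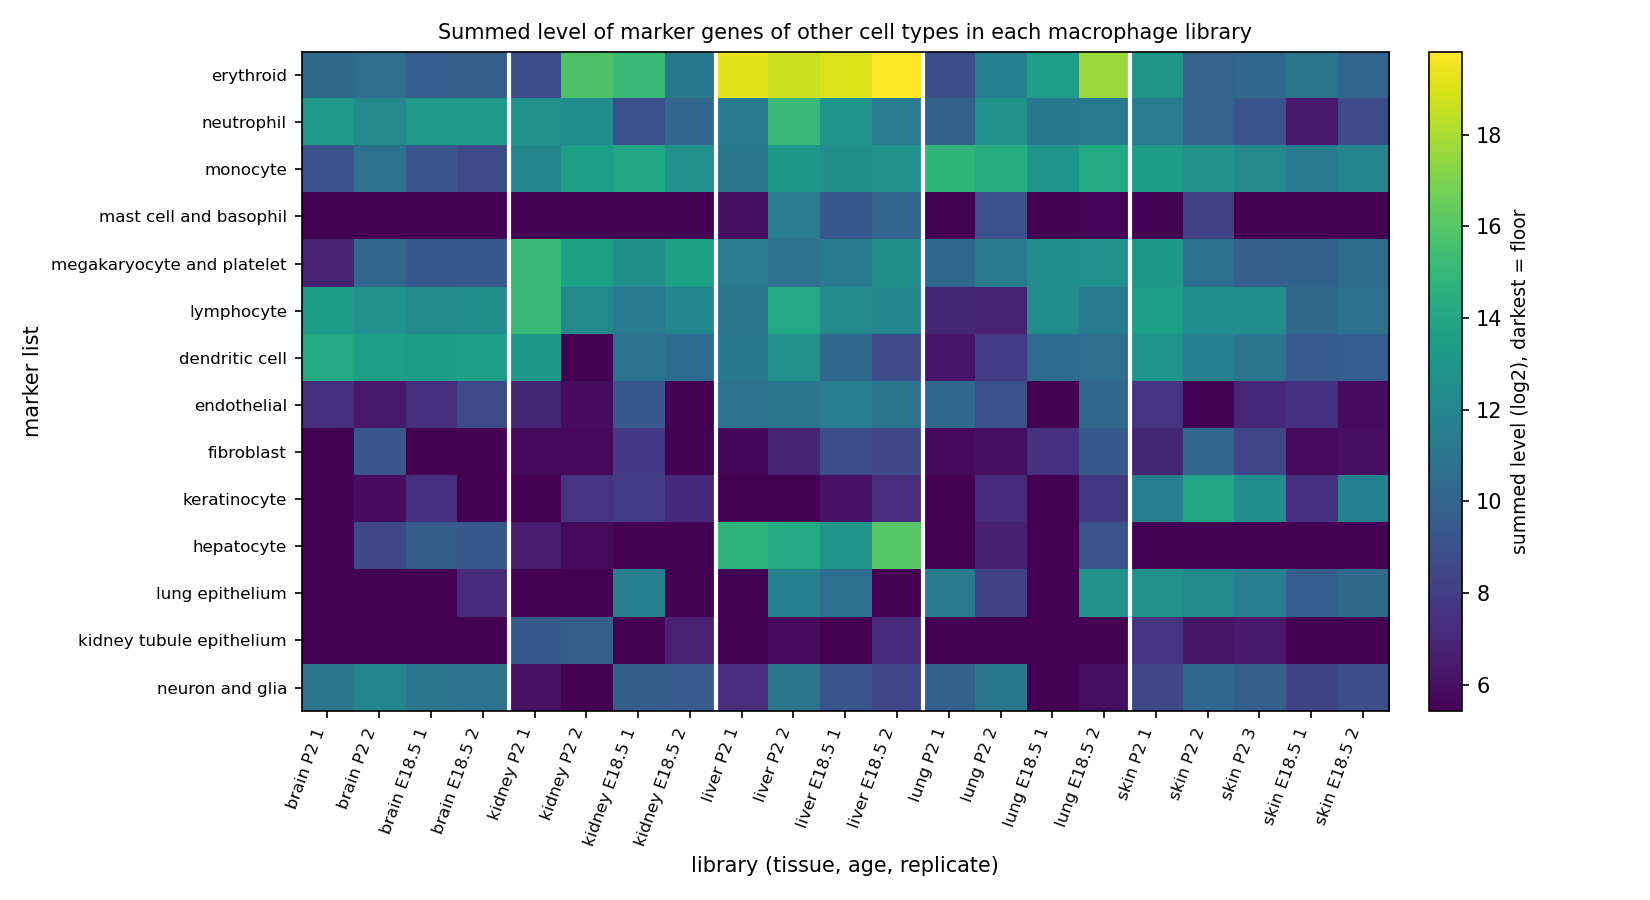
Summed log2 level of 14 lists of marker genes of other cell types (rows) in each of the 21 macrophage libraries (columns, P2 before E18.5 within each tissue, white lines between tissues). Erythroid markers were highest in the 4 liver libraries, and keratinocyte markers reached 13.88 in P2 skin.

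With tissue as a covariate, no gene of 12805 was called over the 5 tissues by limma (0%), and 1115 genes had an unadjusted p under 0.05 (8.71%, of which 505 or 3.94% were higher and 610 or 4.76% lower in P2). The median difference of all genes was -0.05. Closest to a call was Cep128, a centrosomal protein gene, which averaged 6.47 in P2 and 9.25 in E18.5 libraries (-2.86 ± 0.50, adjusted p = 0.0693). Its P2 levels were between 5.43 and 6.47 in brain, kidney, liver and lung, below all E18.5 levels of these tissues, whereas the P2 skin levels of 7.54, 8.81 and 7.80 overlapped the E18.5 skin levels of 8.46 and 9.83. Without the skin libraries Cep128 was called (-3.39 ± 0.45, adjusted p = 0.0289).

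MHC class I gene H2-D1, whose product presents peptides to cytotoxic T cells (chromosome 17, 35262730 to 35267499, plus strand), lay higher in P2 in the means of all 5 tissues. In brain it had 12.23 and 12.91 in the P2 libraries, against 10.87 and 10.83 in the E18.5 libraries, and in skin 15.51, 14.80 and 14.15 in the P2 libraries, against 12.58 and 13.05 in the E18.5 libraries. In kidney it had 14.88 and 14.87 in the P2 libraries, against 14.03 and 14.57 in the E18.5 libraries, in lung 14.53 and 15.05 in the P2 libraries, against 14.36 and 14.01 in the E18.5 libraries, and in liver 15.37 and 15.08 in the P2 libraries, against 15.36 and 14.20 in the E18.5 libraries. The ages did not overlap in 4 tissues and overlapped in liver. The difference over tissues was 1.11 ± 0.26 with an unadjusted p of 0.000235 and an adjusted p of 0.407, so it was not called. It was 0.84 without skin and 0.96 without brain, the smallest values of the 5 fits that each left a tissue out. The near-identical copies of the H2 family may share reads with it. Of the other genes with the smallest p, Kif20b, a mitotic kinesin, averaged 8.14 in P2 and 10.45 in E18.5 libraries (-2.27 ± 0.53), and the mitochondrial gene mt-Nd1 averaged 16.08 in P2 and 15.13 in E18.5 libraries (0.99 ± 0.24), both with an adjusted p of 0.407.

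Among lists of related genes, the interferon response list stood lowest over the 5 tissues, with a median of -1.11 over its 30 genes beside -0.05 for all genes. No member was called. At an unadjusted p under 0.05, 14 of 30 were lower and 0 higher, against 4.76% and 3.94% of all genes. Without the lung libraries 2 of 30 were lower at that p and the median was -0.28, and without kidney 6 of 30, whereas without brain, liver or skin there were 10, 11 and 15. Rtp4, a Golgi chaperone gene of this list, shows the pattern. In lung it had 6.12 and 5.43 in the P2 libraries, against 12.79 and 11.30 in the E18.5 libraries, and in kidney 5.94 and 10.499 in the P2 libraries, against 12.73 and 12.04 in the E18.5 libraries. In brain it had 9.47 and 8.69 in the P2 libraries, against 8.94 and 9.47 in the E18.5 libraries, and in liver and skin the ages also overlapped. MHC class II genes had a median of 1.29 over 9 genes, with 4 higher at an unadjusted p under 0.05, and none remained at that p without liver or without skin. Hypoxia and glycolysis genes had a median of -0.66 over 27 genes, with 7 lower at that p and 5 to 7 lower with any 1 tissue left out. Pfkl, which encodes a glycolytic enzyme, was lower in the means of all 5 tissues (-2.20 ± 0.61, adjusted p = 0.421). The cell cycle list had a median of -0.54 over 35 genes with 3 lower at that p. Of these, Cdc20, an activator of the anaphase-promoting complex, differed by -2.22 ± 0.59, adjusted p = 0.421. It had 6.30 and 6.05 in the P2 kidney libraries, against 10.17 and 10.74 in the E18.5 kidney libraries, and 6.06 and 5.60 in the P2 lung libraries, against 10.15 and 8.88 in the E18.5 lung libraries, while the ages overlapped in brain, liver and skin.

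**Figure D2:**
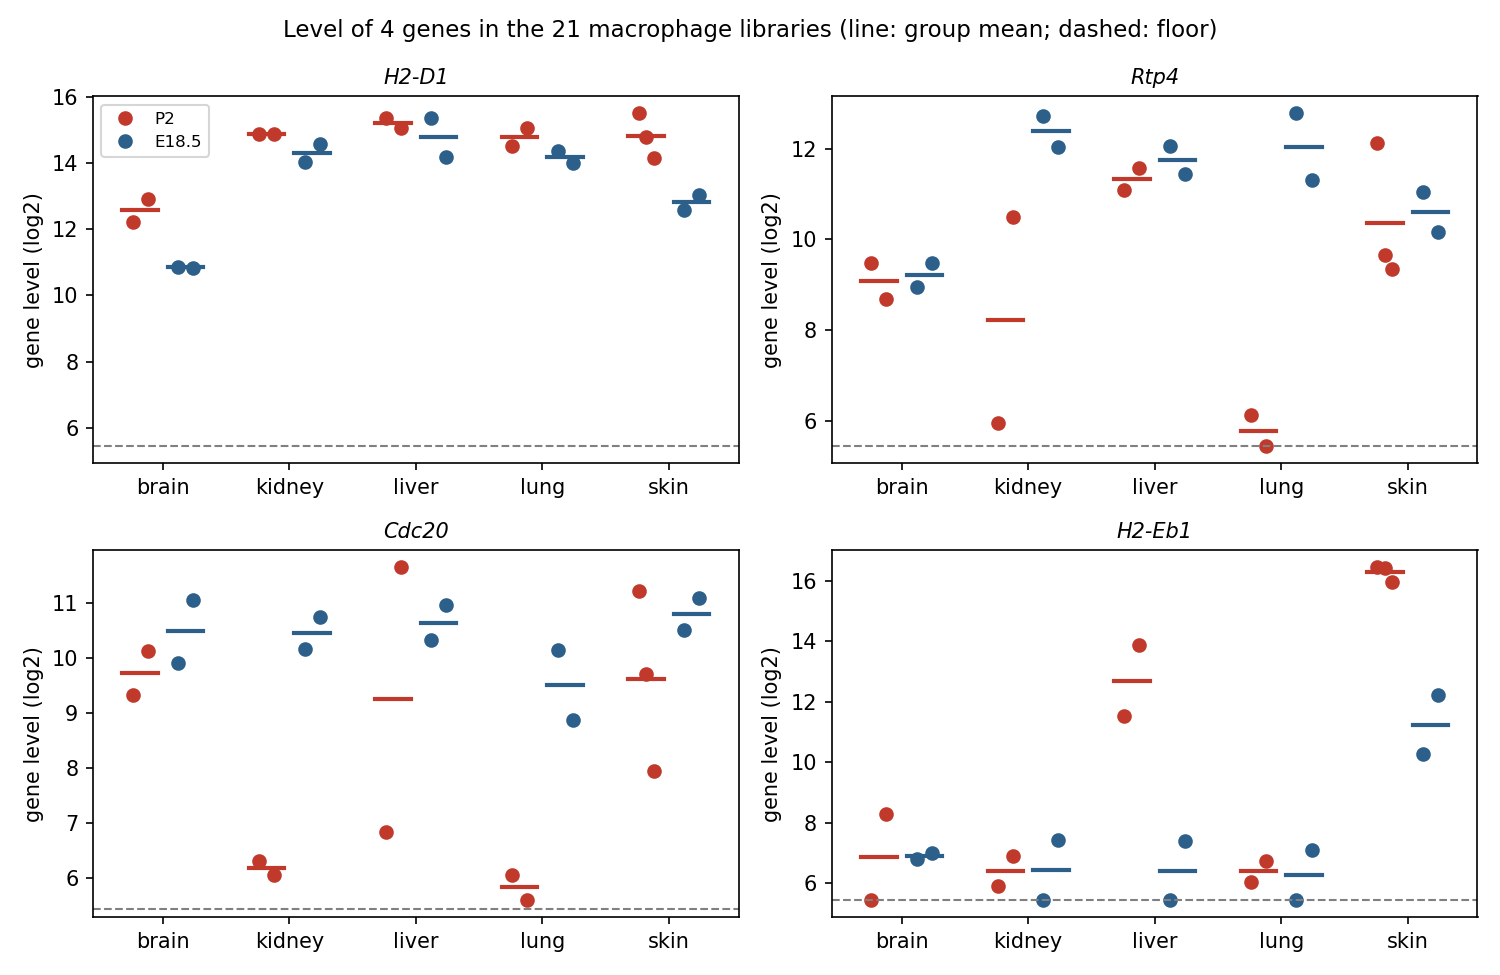
Levels (log2, vertical axis) of H2-D1, Rtp4, Cdc20 and H2-Eb1 in each library by tissue, with P2 in red to the left of E18.5 in blue, lines for group means and a dashed line for the floor. H2-D1 is higher in the P2 mean of every tissue, Rtp4 is low in P2 lung and 1 P2 kidney library, and H2-Eb1 is high in P2 skin and P2 liver.

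Between 17 and 193 genes were called in each tissue. In lung 147 genes were called (1.15% of 12805), 39 higher and 108 lower in P2. In kidney there were 193 (1.51%, 55 higher and 138 lower), in liver 44 (0.344%, 14 and 30), in brain 37 (0.289%, 16 and 21) and in skin 17 (0.133%, 15 and 2). Of 428 genes called in any tissue, 418 were called in 1 tissue, 10 in 2 and 0 in 3 or more. Igf1, a growth factor gene, was called in opposite directions in skin and lung, and Ipp, a kelch-repeat gene, in brain and skin. A test of the difference between tissues passed for 52 genes (0.406%, adjusted p under 0.05). They include 46 of the 418 genes called in 1 tissue, so for the other 372 a difference between tissues was not shown. The tissue with the largest difference was lung for 19 of them (6 higher and 13 lower in P2), liver for 12, kidney for 10, brain for 7 and skin for 4, all 4 higher. One age lay at the floor in every library for 30 of the 37 genes called in brain, 27 of 44 in liver, 11 of 17 in skin, 59 of 147 in lung and 59 of 193 in kidney. The counts rest on a spread shared by all 21 libraries: fitted on the libraries of 1 tissue alone, brain, kidney, liver and lung gave 0 calls each and skin 14. All 7 called skin genes followed through the alternatives lost their call in that fit, Cd207 among them. Of the called genes followed through all alternatives, 8 of 49 in lung, 6 of 9 in brain, 6 of 11 in liver, 7 of 18 in kidney and 0 of 7 in skin kept their call whichever 1 library of their own tissue was left out. With array weights skin had 366 calls, kidney 1, liver 7 and brain 75. Without the 4 libraries that held markers of other cells or tissues, 69 genes were called in skin and 58 in brain. Lung E18.5, liver P2 and kidney E18.5 then held 1 library each, so counts for these tissues are left out here.

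**Figure D3:**
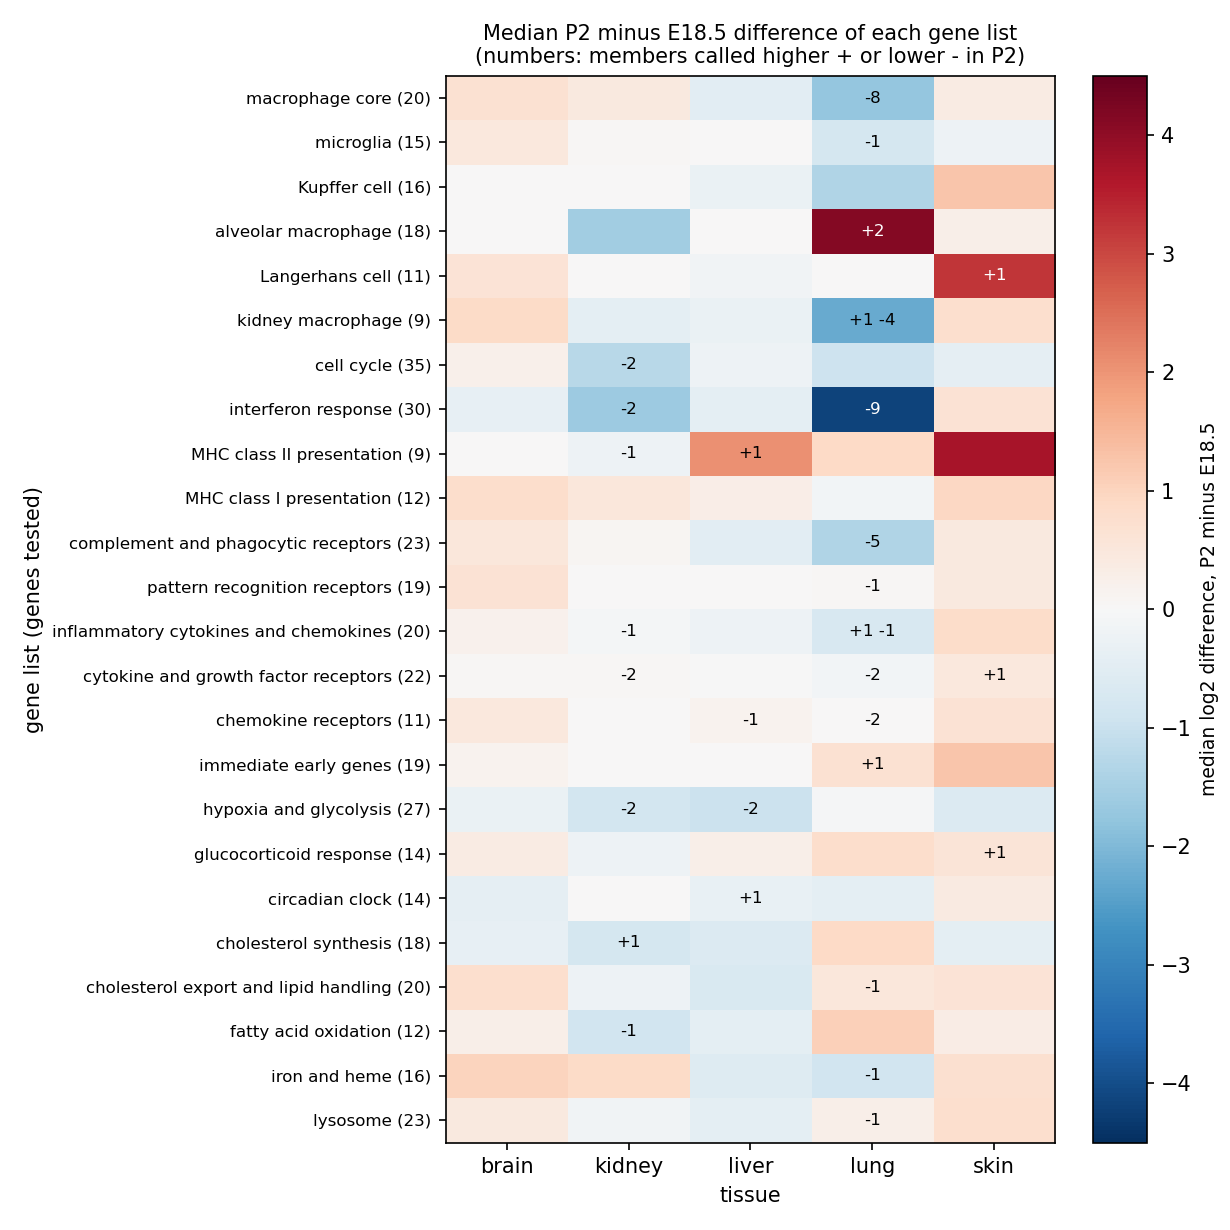
Median P2 minus E18.5 log2 difference (colour) of 24 gene lists (rows, with the number of genes tested) in the 5 tissues (columns), with the number of members called higher (+) or lower (-) in P2. The interferon response list is lowest and the alveolar macrophage list highest in lung, and MHC class II and Langerhans cell lists are highest in skin.

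In lung the alveolar macrophage list had the highest median of all lists, 4.13 over the 18 of its 20 genes present, beside 0.00 for all genes. Of these 18, 2 rose and 0 fell, against 0.305% and 0.843% of all genes called. Ear1, an eosinophil-associated ribonuclease gene of alveolar macrophages (chromosome 14, 43818765 to 43875517, minus strand), had 9.69 and 11.30 in the P2 libraries, against 5.43 and 6.40 in the E18.5 libraries (4.58 ± 0.55, adjusted p = 0.000613). Itgax, which encodes the integrin CD11c, had 11.05 and 12.26 in the P2 libraries, against 5.43 and 7.07 in the E18.5 libraries (5.41 ± 1.06, adjusted p = 0.0165). In both genes the P2 libraries lay above the E18.5 libraries without overlap. The test between tissues passed for Ear1 (adjusted p = 0.0181) but not for Itgax (adjusted p = 0.321). Ear1 belongs to a family of near-identical copies, so reads may be shared. Other members differed in the same direction without passing the test, with E18.5 libraries far apart. Car4, a carbonic anhydrase gene, had 13.40 and 12.73 in the P2 libraries, against 5.43 and 12.23 in the E18.5 libraries (4.23 ± 1.76, adjusted p = 0.292). Plet1 had 13.08 and 14.33 in the P2 libraries, against 5.43 and 10.83 in the E18.5 libraries (5.58 ± 1.40, adjusted p = 0.0646). Pparg, the regulator named above, had 11.12 and 12.44 in the P2 libraries, against 8.05 and 9.74 in the E18.5 libraries (2.89 ± 1.65, adjusted p = 0.464). In each of the 3, the higher E18.5 value came from replicate 2, the library with Sftpc and globin transcripts. Marco, a scavenger receptor gene, had 10.77 and 11.85 in the P2 libraries, against 5.43 and 9.09 in the E18.5 libraries (4.05 ± 1.38, adjusted p = 0.185), and Lpl, lipoprotein lipase, 13.93 and 13.98 in the P2 libraries, against 9.14 and 12.34 in the E18.5 libraries (3.22 ± 0.91, adjusted p = 0.104). Fabp4, a fatty acid binding protein gene, overlapped between the ages, with 6.23 and 9.37 in the P2 libraries, against 5.43 and 11.18 in the E18.5 libraries (-0.51 ± 1.60, adjusted p = 1). Without lung E18.5 replicate 2, 9 of the 18 genes were called higher with a median of 6.05. Without lung E18.5 replicate 1, 1 was called with a median of 1.65. Leaving out the 4 libraries that held other markers, lung E18.5 replicate 2 among them, gave the same median of 6.05. Each of these fits holds 1 lung E18.5 library, so they have no replicate at that age. Ear1 kept its call whichever lung library was left out, and Itgax lost it without P2 replicate 2 or E18.5 replicate 1.

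Genes that mark macrophages in many tissues were among those that fell in lung. Of the 20 genes of the macrophage core list, 8 fell and 0 rose, beside 0.843% and 0.305% of all genes. The 3 chains of complement C1q, which binds apoptotic cells and immune complexes, all fell. C1qc had 10.40 and 7.42 in the P2 libraries, against 14.63 and 14.48 in the E18.5 libraries (-5.64 ± 0.73, adjusted p = 0.000812). C1qb had 8.62 and 11.12 in the P2 libraries, against 14.81 and 14.46 in the E18.5 libraries (-4.76 ± 0.73, adjusted p = 0.00327), and C1qa differed by -3.89 ± 0.64, adjusted p = 0.00496. No P2 library reached the level of an E18.5 library in any of the 3. The fractalkine receptor gene Cx3cr1 had 9.26 and 6.80 in the P2 libraries, against 13.60 and 12.63 in the E18.5 libraries (-5.08 ± 0.83, adjusted p = 0.00496), and Maf, a transcription factor gene of tissue macrophages, 7.99 and 6.25 in the P2 libraries, against 13.22 and 12.43 in the E18.5 libraries (-5.71 ± 0.90, adjusted p = 0.00435). The CSF1 receptor gene Csf1r remained well above the floor at both ages, with 11.61 and 13.52 in the P2 libraries, against 15.35 and 14.81 in the E18.5 libraries (-2.52 ± 0.56, adjusted p = 0.0334). The phosphatidylserine receptor gene Mertk was not called in lung (0.85 ± 0.85, adjusted p = 0.746). Adgre1, a surface marker gene of mouse macrophages, differed by -3.46 ± 0.74, adjusted p = 0.0263, and Aif1 by -4.93 ± 0.91, adjusted p = 0.0118. Of the same 20 genes, 0 were called in brain, kidney, liver or skin. For C1qc the difference between tissues passed its test (adjusted p = 0.0207), with values of 0.80 in brain, 0.10 in kidney, -0.77 in liver and 0.43 in skin. For Maf, C1qa, C1qb and Cx3cr1 that test gave an adjusted p of 0.0504, 0.0549, 0.0509 and 0.0622.

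Among complement and phagocytic receptor genes, 5 of 23 fell in lung and 0 rose, beside 0.843% and 0.305% of all genes. Of the 5, 3 were the C1q chains. The scavenger receptor gene Stab1 (chromosome 14, 31139013 to 31168641, minus strand) had the largest fall of all genes in lung, with 9.19 and 6.81 in the P2 libraries, against 16.15 and 15.59 in the E18.5 libraries (-7.87 ± 0.99, adjusted p = 0.000667), and the test between tissues passed (adjusted p = 0.0241). Gas6, a ligand of MERTK, had 8.66 and 6.08 in the P2 libraries, against 13.13 and 12.26 in the E18.5 libraries (-5.33 ± 1.02, adjusted p = 0.0153). F13a1, the coagulation factor XIII A chain, differed by -6.66 ± 1.16, adjusted p = 0.00773, and the apolipoprotein gene Apoe had 13.27 and 14.17 in the P2 libraries, against 16.65 and 16.65 in the E18.5 libraries (-2.93 ± 0.58, adjusted p = 0.0179). The macrophage core count was 8 without the 4 libraries with other markers, 6 without lung E18.5 replicate 2, 7 without lung P2 replicate 1, 4 without lung P2 replicate 2 and 1 without lung E18.5 replicate 1. The complement and phagocytic count was 5, 5, 4 and 2 genes lower when lung E18.5 replicate 2, P2 replicate 1, P2 replicate 2 and E18.5 replicate 1 were left out, and 7 lower with 2 higher without the 4 libraries.

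The interferon response list had the lowest median in lung, -4.17 over 30 genes, with all 30 differences below 0. Of the 30, 9 fell and 0 rose, beside 0.843% and 0.305% of all genes. The called genes are Irf7, Rtp4, Ifit3, Oasl2, Rsad2, Ifi204, Oas2, Xaf1 and Oas1a. The test between tissues passed for none of these 9, with an adjusted p from 0.0934 for Oas1a to 0.223 for Oas2. A difference of lung from the other tissues was therefore not shown for them. Irf7, the transcription factor that amplifies interferon production (chromosome 7, 141262706 to 141266481, minus strand), had 5.96 and 5.43 in the P2 libraries, against 12.98 and 11.05 in the E18.5 libraries (-6.32 ± 1.27, adjusted p = 0.0188). Ifit3, an antiviral effector gene, had 5.43 and 5.43 in the P2 libraries, against 12.42 and 10.13 in the E18.5 libraries (-5.85 ± 1.26, adjusted p = 0.0279). Oasl2, of the oligoadenylate synthetase family, had 8.79 and 5.43 in the P2 libraries, against 13.47 and 11.99 in the E18.5 libraries (-5.62 ± 1.15, adjusted p = 0.0204). In these genes P2 libraries sat at or near the floor in at least 1 replicate, and the ages did not overlap. Rsad2, which encodes viperin, was at the floor in both P2 libraries and at 10.65 and 11.02 in the E18.5 libraries (-5.41 ± 1.28, adjusted p = 0.0482). Oas1a fell in kidney too (-5.26 ± 0.89, adjusted p = 0.0103), as the only list member called in both, and in lung it had 8.15 and 6.44 in the P2 libraries, against 11.84 and 11.28 in the E18.5 libraries (-4.27 ± 0.89, adjusted p = 0.0236). The kidney call of Oas1a was lost with array weights and without kidney E18.5 replicate 1, the library that held Sftpc, Car4 and Pparg. Mx1 and Isg15 did not pass (-5.26 ± 1.62, adjusted p = 0.14 and -2.48 ± 0.93, adjusted p = 0.235). The receptor gene Ifnar1 fell, with 9.40 and 7.63 in the P2 libraries, against 12.74 and 12.21 in the E18.5 libraries (-3.96 ± 0.72, adjusted p = 0.0106). Paralogs in the Oas, Ifit and Ifi200 families may share reads. The list's count rested on single libraries: it was 0 without lung P2 replicate 2 and 0 without lung E18.5 replicate 1, with medians of -3.87 and -3.45, and 6 without either of the other lung libraries. It was 11 without the 4 libraries with other markers and 5 with the number of detected transcripts as a covariate.

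Promoters of these genes are shown because the response element can be read in them. Of the 9 called genes, 6 had an entry in the RefSeq promoter table of GRCm38.p6, which holds 250 bases before and 50 after each annotated start. The run GAAA, any 2 bases, GAAA (TTTC, any 2 bases, TTTC on the other strand), which is the core of the interferon-stimulated response element, was searched on both strands, and overlapping matches were counted. It was present for 3 of the 6 genes, for 12 of 19 genes of the whole list with an entry (63.2%) and for 1079 of 27025 genes of the table (3.99%). The 3 promoters with a match and that of Irf7, which has none in this window, are printed 5′ to 3′ with the matches in capitals.
Ifit3, chr19:34583279-34583578, plus strand: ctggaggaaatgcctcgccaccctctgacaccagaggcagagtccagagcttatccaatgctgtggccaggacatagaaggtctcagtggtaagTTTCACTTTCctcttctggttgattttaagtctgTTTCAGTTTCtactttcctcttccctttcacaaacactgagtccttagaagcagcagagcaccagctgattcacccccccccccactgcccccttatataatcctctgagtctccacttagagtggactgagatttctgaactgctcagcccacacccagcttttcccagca
Rsad2, chr12:26456403-26456702, minus strand: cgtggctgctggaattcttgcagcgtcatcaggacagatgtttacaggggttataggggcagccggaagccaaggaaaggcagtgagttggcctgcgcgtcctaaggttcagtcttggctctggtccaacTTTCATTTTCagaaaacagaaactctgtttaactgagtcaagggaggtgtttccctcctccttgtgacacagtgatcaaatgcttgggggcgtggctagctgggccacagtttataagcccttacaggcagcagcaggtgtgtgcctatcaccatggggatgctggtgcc
Oas1a, chr5:120907476-120907775, minus strand: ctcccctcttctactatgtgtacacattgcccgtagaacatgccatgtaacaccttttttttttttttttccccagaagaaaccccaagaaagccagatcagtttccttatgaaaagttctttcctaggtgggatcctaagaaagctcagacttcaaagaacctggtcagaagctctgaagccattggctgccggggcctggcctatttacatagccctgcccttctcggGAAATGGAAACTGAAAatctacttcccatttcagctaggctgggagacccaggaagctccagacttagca
Irf7, chr7:141266375-141266674, minus strand: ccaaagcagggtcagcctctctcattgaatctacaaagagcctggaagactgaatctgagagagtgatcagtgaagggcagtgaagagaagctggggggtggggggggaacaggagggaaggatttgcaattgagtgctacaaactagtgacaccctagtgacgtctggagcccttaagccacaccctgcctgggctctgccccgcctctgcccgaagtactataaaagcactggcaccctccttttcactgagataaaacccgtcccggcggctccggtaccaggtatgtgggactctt
In Ifit3 the 2 matches begin 156 and 122 bases before the start, in Rsad2 the match begins 120 bases before it, and in Oas1a 2 overlapping matches begin 20 and 14 bases before it. A match describes these letters and is not evidence of binding.

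**Figure D4:**
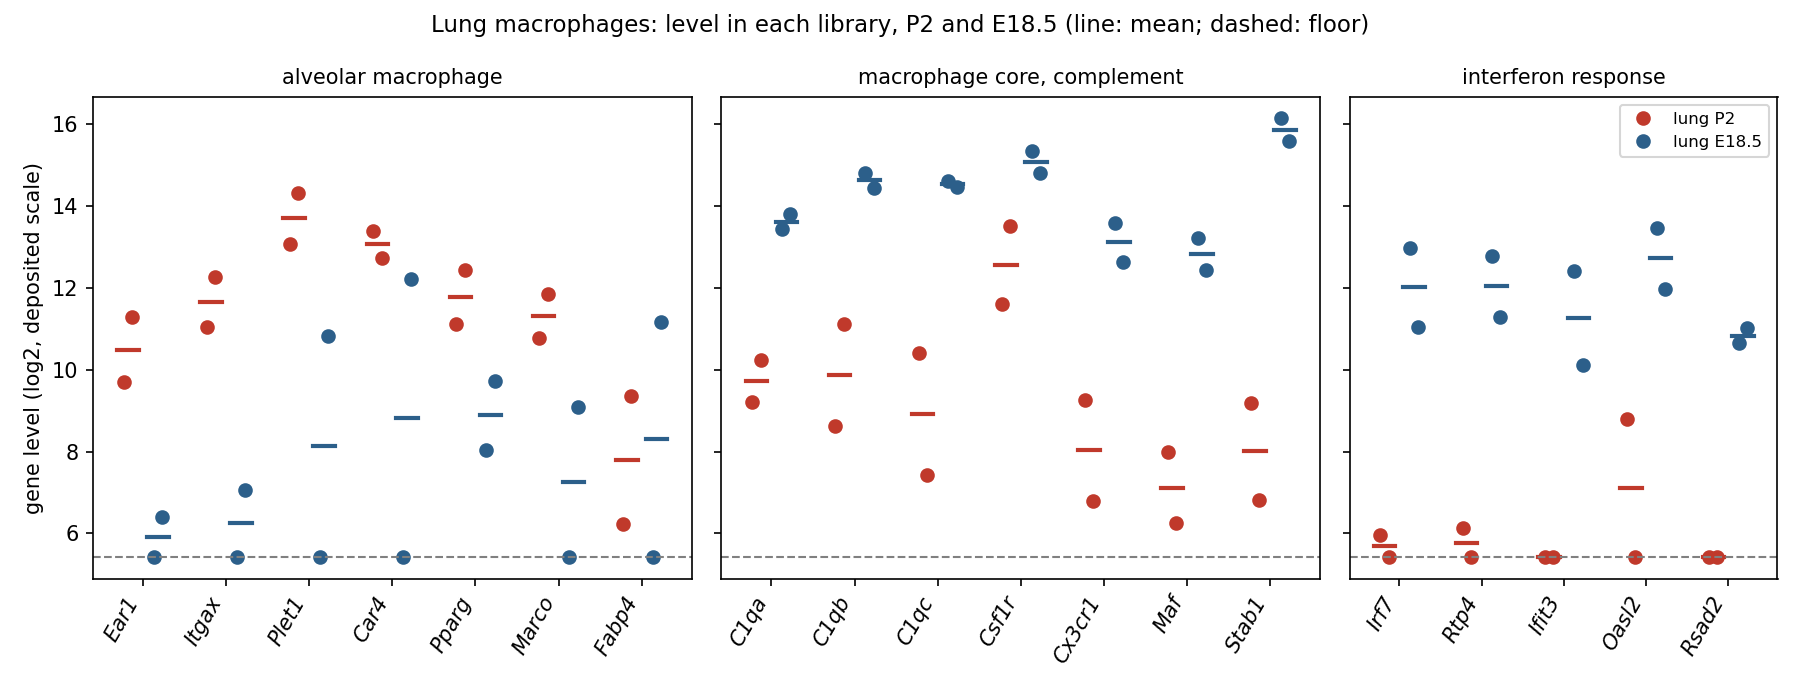
Level (log2, vertical axis) of 19 genes in each lung library, with P2 in red to the left of E18.5 in blue, short lines for means and a dashed line for the floor at 5.43. Ear1 and Itgax are higher and the C1q genes, Csf1r, Cx3cr1, Maf, Stab1 and the interferon genes are lower in P2, without overlap, while 1 of the 2 E18.5 libraries approaches P2 in Car4 and Plet1.

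Calls in lung also came from the immediate early and inflammatory cytokine lists, 1 of 19 and 1 of 20 genes higher in P2 and 1 lower in the second, beside 0.305% of all genes higher and 0.843% lower. The immediate early transcription factor gene Nr4a1 had 11.25 and 11.04 in the P2 libraries, against 5.43 and 5.43 in the E18.5 libraries (5.72 ± 1.12, adjusted p = 0.0165), and the cytokine gene Il1b 9.68 and 11.59 in the P2 libraries, against 5.43 and 5.43 in the E18.5 libraries (5.20 ± 1.18, adjusted p = 0.0375). Both were above the floor in P2 libraries only, among the 4. Nr4a1 lost its call without any 1 of the 4 lung libraries, and Il1b in 17 of 38 alternatives. Among genes picked by the test between tissues, Synj2, an inositol phosphatase gene, had 12.44 and 11.64 in the P2 libraries, against 5.43 and 5.43 in the E18.5 libraries (6.61 ± 0.79, adjusted p = 0.000613), and Kazald1 and Zbtb32, a transcriptional repressor gene, rose by 5.19 ± 0.64 and 5.10 ± 0.58. Rnf213, a large ubiquitin ligase gene, had 6.95 and 6.37 in the P2 libraries, against 13.75 and 12.47 in the E18.5 libraries (-6.45 ± 0.79, adjusted p = 0.000613), and Slc9a9, an endosomal sodium/proton exchanger gene, fell by 5.95 on the log2 scale. Ccl7, a monocyte chemokine gene, differed by -4.97 ± 1.17, adjusted p = 0.0467, the receptor gene Tlr1 of bacterial lipoproteins by -5.80 ± 1.05, adjusted p = 0.0102, and the phagosomal metal transporter gene Slc11a1 by -5.08 ± 1.02, adjusted p = 0.0188, and all 3 were called lower. Ccl7 lost its call in 21 of 39 alternatives, those without any 1 lung library among them. Summed markers of other cells also differed between the lung groups. The summed erythroid level was 8.87 to 11.74 in P2 and 13.51 to 17.66 in E18.5 libraries (16 of 17 listed genes present), and the lymphocyte level was 6.80 to 6.89 in P2 and 11.28 to 12.42 in E18.5 (10 of 16), from Ighm and Cd79b, with Cd79a and Ms4a1 at the floor at both ages. The dendritic cell level was 6.22 to 7.99 in P2 and 10.47 to 10.57 in E18.5, with Flt3 at the floor at both ages, and the monocyte level 14.41 to 14.86 in P2 and 12.96 to 14.14 in E18.5 with Ly6c2 at the floor. Their part in the lung results was not tested. The lung count was 55 without P2 replicate 2, 18 without E18.5 replicate 1, and 289 without either P2 kidney library, through the shared estimate of the spread.

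In skin the called genes were 15 of 17 higher in P2, among them a defining gene of Langerhans cells. Cd207, which encodes langerin (chromosome 6, 83671215 to 83677857, minus strand), was at the floor in both E18.5 libraries and had 13.39, 11.60 and 11.99 in the 3 P2 libraries (6.90 ± 0.95, adjusted p = 0.00705), and the test between tissues passed (adjusted p = 0.0256). It was the only call among the 11 Langerhans cell genes tested, whose median was 3.20 beside 0.13 for all genes, and of all genes 0.117% were called higher and 0.0156% lower in skin. Epcam, an adhesion molecule gene of Langerhans cells, had 13.41, 12.77 and 12.84 in the P2 libraries, against 8.75 and 9.65 in the E18.5 libraries (3.81 ± 0.85, adjusted p = 0.124). Mfge8, which bridges phosphatidylserine to integrins, had 14.55, 15.08 and 14.94 in the P2 libraries, against 9.59 and 10.28 in the E18.5 libraries (4.92 ± 1.16, adjusted p = 0.164). For both genes the ages did not overlap, but neither passed the test.

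Class II antigen presentation genes had a median of 3.70 over 9 genes in skin, the highest of the 5 tissues, with 0 called. H2-Aa had 17.19, 16.71 and 16.46 in the P2 libraries, against 10.55 and 12.65 in the E18.5 libraries (5.19 ± 1.62, adjusted p = 0.709). Cd74, the invariant chain, had 18.25, 18.24 and 18.26 in the P2 libraries, against 13.22 and 14.72 in the E18.5 libraries (4.28 ± 0.94, adjusted p = 0.121). H2-Eb1 had 16.47, 16.42 and 15.96 in the P2 libraries, against 10.27 and 12.22 in the E18.5 libraries (5.04 ± 1.09, adjusted p = 0.11). Ciita, the class II transactivator, had 11.13, 11.43 and 11.27 in the P2 libraries, against 8.24 and 7.31 in the E18.5 libraries (3.50 ± 1.003, adjusted p = 0.538). In all 4 genes every P2 library lay above both E18.5 libraries, though none was called. The share of all genes that do so in skin was not counted. For H2-Aa the standard error of 1.62 rests on a spread shared with the other tissues, where liver P2 libraries held 6.43 and 14.71. Without liver P2 replicate 1, and without liver P2 replicate 2, the difference stayed at 5.19 and its adjusted p in limma was smaller. Each of those fits holds 1 liver P2 library, so the p is not given. The adjusted p of H2-Aa in skin was 0.417 in the limma fit on skin libraries alone and 0.00154 with array weights. Its difference was 4.14 to 6.23 over the fits that each left out 1 library.

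Further called genes in skin were Igf1, a growth factor gene, with 11.42, 9.95 and 10.17 in the P2 libraries, against 5.43 and 5.65 in the E18.5 libraries (4.97 ± 0.73, adjusted p = 0.00778), the class I-like gene H2-M2, with 10.08, 10.86 and 10.253 in the P2 libraries, against 5.43 and 7.05 in the E18.5 libraries (4.16 ± 0.56, adjusted p = 0.00705), and the decoy receptor gene Il1r2, with 9.83, 10.37 and 8.97 in the P2 libraries, against 5.43 and 7.46 in the E18.5 libraries (3.28 ± 0.60, adjusted p = 0.0323). The P2 libraries were higher in all 3 without overlap. In lung Igf1 went the other way, with 5.94 and 5.97 in the P2 libraries, against 10.60 and 10.16 in the E18.5 libraries (-4.42 ± 0.80, adjusted p = 0.0102), and its test between tissues passed (adjusted p = 0.00978). Keratinocyte markers summed to 11.57 to 13.88 in P2 and 7.44 to 11.69 in E18.5 skin libraries (8 of 9 listed genes present), with Krt5 at 7.86, 11.55 and 10.23 in P2 and 5.43 and 8.85 in E18.5. Dendritic cell markers summed to 10.95 to 12.87 in P2 and 9.60 to 9.75 in E18.5 (10 of 10), with Flt3 at the floor in E18.5 and Clec9a at the floor at both ages, and lymphocyte markers to 12.43 to 13.43 in P2 and 10.41 to 10.69 in E18.5 (10 of 16), with Cd79a and Ms4a1 at the floor. Their part in the skin results was not tested. The skin count was 35 without P2 replicate 1, the library with Kupffer cell markers, 0 without E18.5 replicate 1, 4 without E18.5 replicate 2, and 27 and 28 without liver P2 replicates 1 and 2. Cd207 kept its sign in these fits and lost its call without either E18.5 skin library. In the fit on skin libraries alone Cd207, Igf1, H2-M2 and Il1r2 all lost their calls. Il1r2 lost its call in 17 of 38 alternatives.

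**Figure D5:**
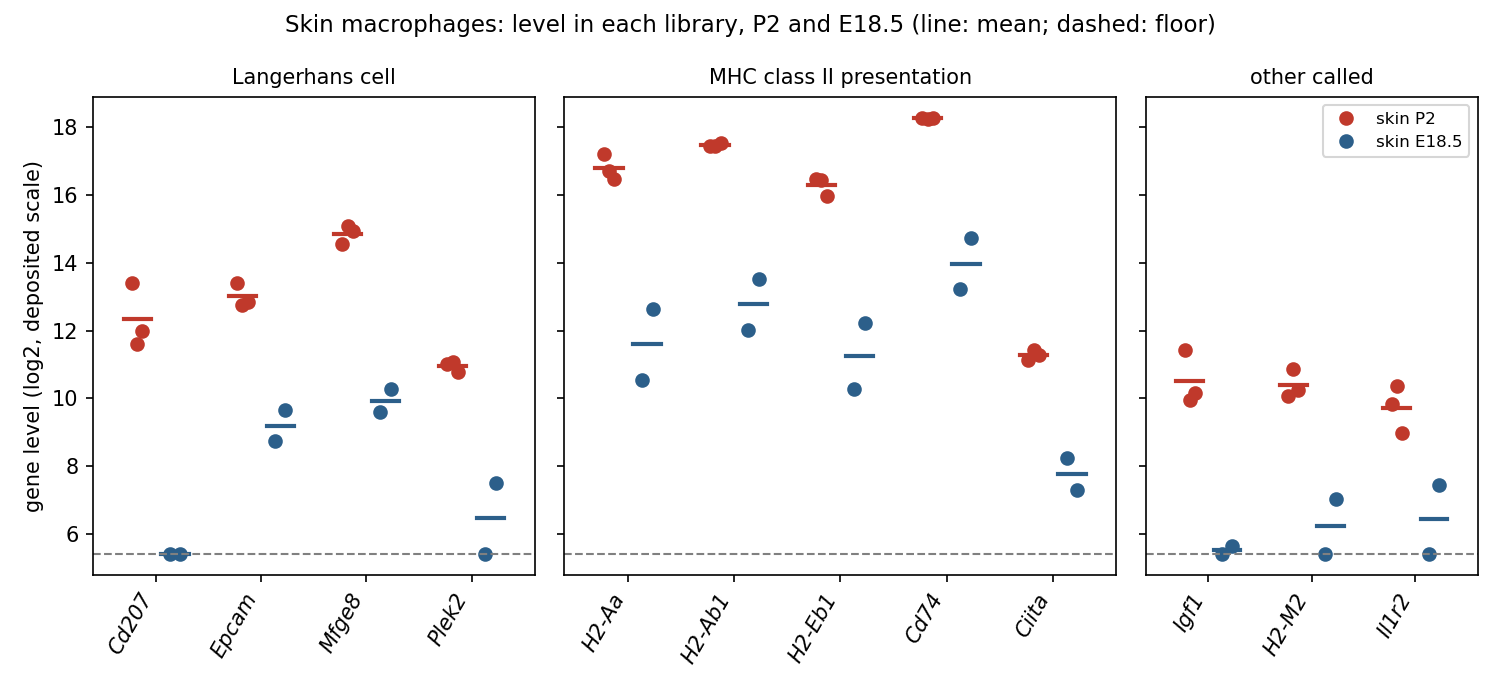
Level (log2, vertical axis) of 12 genes in each skin library, with the 3 P2 libraries in red to the left of the 2 E18.5 libraries in blue, short lines for means and a dashed line for the floor. The 12 genes shown were picked, and each is higher in every P2 library than in either E18.5 library. The share of all genes that do so was not counted. Cd207 is at the floor in both E18.5 libraries.

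In liver 0 of 16 Kupffer cell genes were called, with a median of -0.31 beside 0.00 for all genes. Clec4f, a Kupffer cell lectin gene, had 16.22 and 14.33 in the P2 libraries, against 15.39 and 15.11 in the E18.5 libraries (0.03 ± 1.22, adjusted p = 1), and the complement receptor gene Vsig4 13.28 and 12.72 in the P2 libraries, against 12.72 and 12.30 in the E18.5 libraries (0.48 ± 0.91, adjusted p = 0.98). Changes lay elsewhere. Of 27 hypoxia and glycolysis genes, 2 fell and 0 rose, against 0.234% and 0.109% of all genes. The glucose transporter gene Slc2a1 had 9.28 and 6.27 in the P2 libraries, against 12.53 and 14.08 in the E18.5 libraries (-5.53 ± 1.03, adjusted p = 0.0185), and Adm, the vasodilator adrenomedullin, 5.43 and 5.43 in the P2 libraries, against 7.91 and 7.30 in the E18.5 libraries (-2.17 ± 0.38, adjusted p = 0.0115). Bnip3, a hypoxia-induced mitophagy gene, had 5.73 and 5.43 in the P2 libraries, against 9.58 and 10.02 in the E18.5 libraries and did not pass (-4.22 ± 1.19, adjusted p = 0.245). The Slc2a1 call was lost without P2 replicate 2, without E18.5 replicate 2 and without the 4 libraries with other markers. The embryonic beta-globin gene Hbb-y was at the floor in P2 and at 11.60 and 8.97 in E18.5 libraries (-4.85 ± 0.81, adjusted p = 0.00814). Summed erythroid markers were high at both ages, 18.62 to 19.22 in P2 and 19.05 to 19.81 in E18.5 libraries. Their part in these falls was not tested.

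The clock repressor gene Nr1d1 had 10.47 and 9.77 in the P2 libraries, against 7.15 and 6.40 in the E18.5 libraries (3.35 ± 0.53, adjusted p = 0.00485). It was the only called gene of the 14 circadian genes tested, beside 0.109% of all genes called higher. That list had a median of -0.33 in liver, with 5 differences above 0 and 8 below. Nr1d1 lost its call in 5 of 38 alternatives, array weights and no common floor among them. H2-Eb1 rose to 11.52 and 13.87 in the P2 libraries, against 5.43 and 7.39 in the E18.5 libraries (6.28 ± 1.19, adjusted p = 0.0198), and Cd74 had 13.45 and 15.50 in the P2 libraries, against 9.22 and 10.02 in the E18.5 libraries (4.86 ± 1.03, adjusted p = 0.0508). The H2-Eb1 call was lost without P2 replicate 2, without E18.5 replicate 1 and without the 4 libraries with other markers. For H2-Aa only P2 replicate 2 was high, with 6.43 and 14.71 in the P2 libraries, against 8.48 and 8.12 in the E18.5 libraries (2.27 ± 1.78, adjusted p = 0.852). P2 replicate 2 also held the neutrophil genes, and lymphocyte and neutrophil markers summed to 14.10 and 15.13 in it, and to 10.99 and 11.36 in P2 replicate 1. Among genes picked by the test between tissues, Adgrg3, an adhesion receptor gene, and the chemokine receptor gene Ccr1 were at the floor in P2 (-4.20 ± 0.43, adjusted p = 0.000136 and -4.00 ± 0.69, adjusted p = 0.0106), and Ly6d and Rab38 were at the floor in E18.5 (5.43 ± 0.68, adjusted p = 0.000601 and 4.84 ± 0.73, adjusted p = 0.00415). Ube2f, a NEDD8-conjugating enzyme gene, fell (-4.93 ± 0.87) and Lrr1 rose (4.70 ± 0.71). The liver count was 111 and 231 without P2 replicates 1 and 2 and 73 without E18.5 replicate 2.

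In brain no member of any list was called, and for 30 of the 37 genes called 1 age lay at the floor. P2ry12, the purinergic receptor of microglia, had 14.34 and 14.90 in the P2 libraries, against 13.24 and 13.21 in the E18.5 libraries (1.39 ± 1.27, adjusted p = 1), and the transcription factor gene Sall1 12.85 and 12.95 in the P2 libraries, against 12.39 and 12.04 in the E18.5 libraries (0.68 ± 0.77, adjusted p = 1). Cx3cr1 had 15.01 and 15.04 in the P2 libraries, against 13.89 and 14.14 in the E18.5 libraries (1.01 ± 0.83, adjusted p = 1). The P2 values were higher in all 3 without overlap and none passed the test. How many of all genes were so in brain was not counted. Of the 20 macrophage core genes, 17 were above 0 with a median of 0.68, beside 0.03 for all genes. Of the genes picked by the test between tissues, Zfp82 and Zfp618, zinc finger genes, and Pigg, of GPI anchor synthesis, were at the floor in P2 and between 8.97 and 10.32 in E18.5 libraries. Zfp82 differed by -4.54 ± 0.53, adjusted p = 0.000689. Il20rb, a cytokine receptor subunit gene, was at 8.50 and 9.36 in P2 and at the floor in E18.5 libraries (3.50 ± 0.46, adjusted p = 0.00201), as were Pnma2 and Ipp with P2 levels of 8.03 and 8.37 and 8.10 and 8.11. With no common floor Il20rb and Ipp lost their calls. The brain count was 56 without E18.5 replicate 2 and 24 without either E18.5 skin library.

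In kidney the count of 193 moved most with single libraries. It was 32 without the library labelled kidney E18.5 replicate 1, 388 and 1019 without P2 replicates 1 and 2, and 1 with array weights. Glycolytic genes were among those that fell, 2 of 27 beside 1.08% of all genes. Triosephosphate isomerase Tpi1 had 7.20 and 6.23 in the P2 libraries, against 12.08 and 11.95 in the E18.5 libraries (-5.30 ± 0.63, adjusted p = 0.000866), and phosphoglycerate mutase Pgam1 6.68 and 6.41 in the P2 libraries, against 11.48 and 11.03 in the E18.5 libraries (-4.71 ± 0.90, adjusted p = 0.0197). The ages did not overlap, and for Tpi1 the test between tissues passed (adjusted p = 0.028). The count of 2 was 1 without kidney E18.5 replicate 1, 3 and 6 without P2 replicates 1 and 2, and 2 without the 4 libraries with other markers. Of the interferon list, 2 of 30 fell, and the count was 1, 2, 8 and 2 in the same fits. The RNA sensor gene Ddx58 was at the floor in P2 and at 12.24 and 11.53 in E18.5 libraries (-6.45 ± 0.93, adjusted p = 0.00323), and Oas1a had 6.41 and 6.55 in the P2 libraries, against 11.85 and 11.63 in the E18.5 libraries. Irf7 and Usp18, an interferon feedback gene, did not pass (-3.33 ± 1.27, adjusted p = 0.194 and -4.59 ± 1.19, adjusted p = 0.0639). Of 35 cell cycle genes 2 fell, Bub1b of the mitotic checkpoint (-4.67 ± 0.98, adjusted p = 0.0286) and Mcm7 of the replicative helicase (-4.49 ± 0.95, adjusted p = 0.0286). No cell cycle gene was called lower by limma without either kidney E18.5 library, without the 4 libraries, with quantile normalization or with array weights. The list's median of -1.24 was 0.01 with 1 lower without P2 replicate 1, and -3.27 with 10 lower without P2 replicate 2. The class II chaperone gene H2-DMa had 6.46 and 5.43 in the P2 libraries, against 11.71 and 10.56 in the E18.5 libraries (-5.19 ± 0.84, adjusted p = 0.00736). Its difference in skin was 2.51, and the test between tissues passed (adjusted p = 0.0207).

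Among genes picked by that test in kidney, Myo1g, a myosin gene of blood cells, had 5.63 and 5.43 in the P2 libraries, against 11.46 and 11.75 in the E18.5 libraries (-6.07 ± 0.64, adjusted p = 0.000334), and Maf1, a repressor of RNA polymerase III, and Golga7 fell by 5.56 and 5.80 on the log2 scale. Osbpl6, an oxysterol-binding protein gene, had 11.45 and 10.13 in the P2 libraries, against 5.43 and 5.43 in the E18.5 libraries (5.36 ± 0.73, adjusted p = 0.00285), and Npff and Fbxo38 rose (5.12 ± 0.73 and 5.76 ± 1.04). Of 18 cholesterol synthesis genes 1 was called higher, Cyp51 (5.12 ± 1.25, adjusted p = 0.0487), beside 0.43% of all genes. The list had a median of -0.80 with 5 differences above 0 and 11 below, and Cyp51 lost its call in 29 of 38 alternatives. Of 22 cytokine and growth factor receptors 2 were called lower, Tgfbr2 and Csf2rb, beside 1.08% of all genes, with a median of 0.04. With array weights or quantile normalization 0 were called lower. Both genes also lost their calls without either kidney E18.5 library and without the 4 libraries. Both kidney P2 libraries had few detected transcripts. With the number of detected transcripts as a covariate the kidney count was below its main value of 193, as given further below. Their part in the 138 falls was not tested further. Other cells varied within the ages: haemoglobin Hba-a2 was at 7.22 and 14.89 in P2 and 14.37 and 8.97 in E18.5 libraries, and lymphocyte markers summed to 12.34 to 15.19 in P2 and 11.29 to 12.13 in E18.5. Without the libraries named above as holding few transcripts, kidney has no P2 library left. The other tissues then gave 369 calls in lung, 131 in liver, 29 in brain and 13 in skin. Leaving out 1 library of another tissue also moved the kidney count, to 67 and 68 without skin E18.5 replicates 1 and 2, 101 and 122 without skin P2 replicates 2 and 3, 123 and 126 without brain P2 replicates 1 and 2, and 397 and 385 without liver P2 replicates 1 and 2.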

How the data were processed

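All 93 libraries were deposited as 1 table of log2 values per Ensembl transcript, between 0.836 and 19.0; per the submitters' processing notes Bowtie 1.1.1, DESeq2 and the mm10 build were used, and no source used here states how the authors normalized them. The deposited log2 values hold no counts, so no count model was run.

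The lowest values form a band at the 12.5th percentile of each library, which lies between 2.63 and 4.93, and the floor of 5.43 is 0.5 above the highest band. Of 37521 transcripts 36714 matched GENCODE M21 genes and were summed to 14189 genes. A gene was tested at a level of 6.43 or more in at least 2 of the 21 libraries. Models with an intensity trend were fitted in limma 3.58.1 (R 4.3.3) to age with tissue as covariate, to the 10 group means with 1 contrast per tissue, and to the interaction of age with tissue. The fits were also run on simulated data that had no floor, with changes added only to genes well above it. That run cannot check calls in which 1 age lay at the floor. Gene positions are of mm10 (GRCm38) in GENCODE M21.

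The comparison, its members and the 38 gene lists were chosen with earlier results of these data known. Genes were named by rule: the largest called changes in each tissue that also differed between tissues, 3 up and 3 down, and up to 4 called members of each list, with uncalled members given by their values. For the 5 tissues, where nothing was called, genes with the smallest p are given, chosen after their values were seen. A few genes are not reported here. Alternatives covered the filter, floor, scaling, weights, blocks and left-out libraries.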

Additional observations from a re-analysis of the deposited data

Results flagged for a closer look

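For 52 genes the P2 minus E18.5 difference itself differed between the 5 tissues (F test of the interaction, adjusted p under 0.05, 0.406% of 12805 genes). The genes among them that are named above or picked by the rule are given with that adjusted p. Lung had the largest difference for Synj2 (0.0142), Kazald1 (0.0256), Zbtb32 (0.0164), Stab1 (0.0241), Rnf213 (0.0325), Slc9a9 (0.0164), C1qc (0.0207) and Ear1 (0.0181). Skin had it for Cd207 (0.0256), Igf1 (0.00978) and H2-M2 (0.0372). Liver had it for Ly6d (0.0237), Rab38 (0.0432), Lrr1 (0.0164), Ube2f (0.0296), Adgrg3 (0.0115) and Ccr1 (0.0147). Kidney had it for Fbxo38 (0.0392), Osbpl6 (0.0256), Npff (0.0325), Myo1g (0.0095), Golga7 (0.0338), Maf1 (0.028), Tpi1 (0.028) and H2-DMa (0.0207). Brain had it for Il20rb (0.0341), Pnma2 (0.0432), Ipp (0.0142), Zfp82 (0.0181), Pigg (0.028) and Zfp618 (0.0147). Igf1 moved in opposite directions, 4.97 ± 0.73 in skin and -4.42 ± 0.80 in lung, each called. The skin call of Igf1 was lost whichever E18.5 skin library was left out. Its lung call was lost without lung P2 replicate 2 and without lung E18.5 replicate 1. Both calls were lost with the replicate number as a block within tissue. No group had the 4 libraries that Dixon's test for a single outlying sample needs. Array weights, which groups of 2 share equally, gave skin P2 replicate 1 a weight of 0.50, against 3.63 and 2.21 for skin P2 replicates 2 and 3.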

How the results depend on the processing

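Counts of calls moved by over 1.5 times as follows, from 0 over the 5 tissues, 37 in brain, 193 in kidney, 44 in liver, 147 in lung, 17 in skin and 52 between tissues, and the causes were not tested. With a stricter filter on low levels they were 1 over the 5 tissues, 0 in brain, 1 in liver, 1 in skin and 23 between tissues. With median centring they were 1 over the 5 tissues, 3 in brain, 8 in skin and 30 between tissues. With array weights they were 15 over the 5 tissues, 75 in brain, 1 in kidney, 7 in liver and 366 in skin. With no intensity trend they were 1 over the 5 tissues, 3 in brain, 27 in liver, 8 in skin and 16 between tissues. With all Mac libraries of E14.5 to P21 in the fit they were 1 over the 5 tissues, 13 in brain, 58 in kidney and 22 in liver. With the unweighted mean of tissue differences they were 1 over the 5 tissues. With skin left out they were 1 over the 5 tissues. With no filter on low levels they were 63 in brain, 32 in skin and 167 between tissues. With a floor higher by 1 they were 14 in brain. With no common floor they were 20 in brain, 119 in kidney, 8 in liver, 67 in lung and 14 between tissues. With quantile normalization they were 16 in brain, 72 in kidney and 238 in lung. With transcripts tested singly they were 63 in brain, 82 in liver and 34 between tissues. With robust empirical Bayes they were 20 in brain. With the 4 libraries with other markers left out (an alternative chosen after seeing the data) they were 58 in brain, 379 in liver, 529 in lung, 69 in skin and 491 between tissues. With the libraries of the tissue alone they were 0 in brain, 0 in kidney, 0 in liver and 0 in lung. With detected transcripts as a covariate they were 60 in kidney and 83 between tissues. With libraries with few transcripts left out they were 131 in liver, 369 in lung and 122 between tissues. Leaving out 1 library at a time gave 0 to 1 over the 5 tissues, 24 to 56 in brain, 32 to 1019 in kidney, 40 to 231 in liver, 18 to 289 in lung, 0 to 35 in skin and 24 to 331 between tissues, and -2863.9 to -1961.3 for the difference in detected transcripts (exact permutation p = 0.00386 to 0.0293). The 1 call over the 5 tissues came without skin P2 replicate 2 or without skin E18.5 replicate 1. Between tissues the counts were 192 and 331 without kidney P2 replicates 1 and 2, 173 and 286 without those of liver, 24 without lung E18.5 replicate 1, 93 without lung P2 replicate 1, 88 without skin P2 replicate 1, 29 without kidney E18.5 replicate 1, and 29 and 30 without skin E18.5 replicates 1 and 2.

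The signs of 3 uncalled differences turned. Fabp4 in lung was 0.15 with no common floor, 2.37 without the 4 libraries and -3.38 to 2.37 with 1 library left out. H2-Aa in liver was -1.87 without the 4 libraries and -1.87 to 6.41 with 1 library left out. Clec4f in liver was -0.052 with median centring, -0.92 without libraries with few transcripts, -0.64 with detected transcripts as a covariate and -0.92 to 0.98 with 1 library left out.

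The replicate numbers did not pair the samples: same-numbered libraries had correlations of deviations of 0.002 to 0.039. With the replicate number as a block within tissue the counts were 0 in brain, 0 in kidney, 10 in liver, 23 in lung, 0 in skin and 0 between tissues, and with a block shared over tissues 28 in brain, 94 in kidney, 43 in liver, 122 in lung and 14 in skin. A covariate for the set of libraries could not be fitted, since all 21 are in 1 set. Depth is unknown, so genes near the floor carry no counting interval.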

Other observations

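Single genes called in lung outside the lists are given as values; they were chosen after their values were seen and bear on no gene group. Ifi213, of the DNA-sensing Ifi200 family, had 5.43 and 5.43 in the P2 libraries, against 13.64 and 11.19 in the E18.5 libraries (-6.98 ± 1.13, adjusted p = 0.00496), and Ifi207 differed by -5.61 ± 0.95, adjusted p = 0.00668. The restriction factor gene Ifitm3 had 5.43 and 5.43 in the P2 libraries, against 11.54 and 10.38 in the E18.5 libraries (-5.53 ± 1.11, adjusted p = 0.0189), Pml, of nuclear bodies, 5.43 and 5.43 in the P2 libraries, against 12.52 and 10.57 in the E18.5 libraries (-6.11 ± 1.19, adjusted p = 0.0165), and the DNA exonuclease gene Trex1 differed by -4.71 ± 0.93, adjusted p = 0.0179. Each of these genes was picked as called lower and lost its call without lung E18.5 replicate 1. All but Ifi213 also lost it without lung P2 replicate 2. The transcription factor gene Mef2c differed by -5.62 ± 1.04, adjusted p = 0.0118. The costimulation gene Cd86 and the adhesion gene Vcam1 were also lower in P2 (-5.29 ± 1.03, adjusted p = 0.0165 and -4.88 ± 1.14, adjusted p = 0.0442). Vcam1 lost its call in 18 of 39 alternatives, those without any 1 lung library among them. Cd86 lost its call in 7 of 39 and Mef2c in 5 of 39.

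In skin, Cd40, a costimulatory receptor gene, was at the floor in E18.5 and at 11.69, 9.52 and 9.60 in P2 libraries (4.84 ± 0.85, adjusted p = 0.0228), and the class I-like gene H2-M5 had 9.20, 12.20 and 12.23 in the P2 libraries, against 5.43 and 6.98 in the E18.5 libraries (5.01 ± 0.82, adjusted p = 0.0168). Cd40 lost its call in 10 of 38 alternatives and H2-M5 in 8 of 38. Both lost it whichever E18.5 skin library was left out. In brain, a pair of genes called lower is given. Myt1l, a neuronal transcription factor gene, had 5.43 and 6.62 in the P2 libraries, against 8.52 and 9.04 in the E18.5 libraries (-2.75 ± 0.47, adjusted p = 0.0124), and Ptprz1, a glial receptor phosphatase gene, 5.43 and 6.14 in the P2 libraries, against 8.84 and 8.22 in the E18.5 libraries (-2.75 ± 0.56, adjusted p = 0.0452). Ptprz1 lost its call in 24 of 38 alternatives and Myt1l in 7 of 38. Of the 6 neuron and glia markers tested, 0 were called in brain, 4 differences were above 0 and 2 below, with a median of 0.93. The list summed to 11.06 to 12.03 in P2 and 10.83 to 10.95 in E18.5 brain libraries. These genes too were chosen after their values were seen.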
